A study of Rattus norvegicus with 46 samples.

Results

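A set of 9 genes of skeletal muscle stress was followed in the quadriceps of obese rats: Ankrd1, Actc1 and Rrad, which respond to strain and injury, Ptprn, the denervation and junction genes Myog, Chrna1 and Ncam1, and the embryonic and perinatal myosins Myh3 and Myh8. They were chosen with earlier results of these quadriceps libraries in view, so their quadriceps values are given as a description, with no p-value, and nothing is supported with them. The choice named 10 genes. Of these, 9 each matched 1 row of the 32552 genes in the count table, and Chrng was not analysed here. All 9 passed the low-count filter, which kept 12471 genes in quadriceps.

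All rats were DIO (diet-induced obese) and of WT genotype. Quadriceps RNA was sequenced from 8 libraries of rats given CagriSema, which combines cagrilintide, a long-acting amylin analog, with the GLP-1 receptor agonist semaglutide, from 8 libraries of weight-matched, food-restricted rats and from 7 libraries of vehicle rats. Liver gave 7, 8 and 8 libraries of the same treatments. The series' design text gives a treatment of 20 days for the liver, and the duration for muscle is not given in the sources used here. Whether the libraries of a group are from different rats is not stated in the labels, and errors and p-values here cover the spread among libraries, which may be technical.

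Muscle fibres that lose their nerve, are strained or regenerate switch on genes that adult innervated fibres keep low. Loss of nerve activity raises the transcription factor myogenin (Myog), which drives the acetylcholine receptor genes along the whole fibre rather than under the nerve ending alone. Stretch and injury raise sarcomere-bound stress proteins of the I band and Z disc, and new fibres made from satellite cells pass through a stage with cardiac actin and embryonic and perinatal myosin.

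The promoters of Chrna1, Myog, Actc1 and Ptprn are shown as those of the denervation genes and of the genes past the threshold below that had an entry. Each runs over 300 bases, the 250 before the gene start and the first 50 of the transcript, 5′ to 3′ on the gene's strand, from RefSeq on the GRCr8 rat assembly. They lie at chr3:78877304-78877603 (Chrna1, minus strand), chr13:48297226-48297525 (Myog, plus strand), chr3:121271778-121272077 (Actc1, minus strand) and chr9:84204774-84205073 (Ptprn, minus strand). Capitals mark E-boxes (CANNTG, which reads as an E-box on both strands), to which myogenic factors bind, and the CArG box, to which serum response factor binds, searched by its usual consensus. The CArG box and a MEF2 box were searched on both strands, and no match overlapped another.
Chrna1: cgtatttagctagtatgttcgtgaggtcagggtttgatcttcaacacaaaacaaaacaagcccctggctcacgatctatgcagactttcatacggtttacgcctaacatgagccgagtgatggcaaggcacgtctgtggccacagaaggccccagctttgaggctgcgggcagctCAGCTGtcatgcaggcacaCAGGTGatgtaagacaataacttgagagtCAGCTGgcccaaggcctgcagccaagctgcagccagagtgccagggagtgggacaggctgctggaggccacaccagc
Myog: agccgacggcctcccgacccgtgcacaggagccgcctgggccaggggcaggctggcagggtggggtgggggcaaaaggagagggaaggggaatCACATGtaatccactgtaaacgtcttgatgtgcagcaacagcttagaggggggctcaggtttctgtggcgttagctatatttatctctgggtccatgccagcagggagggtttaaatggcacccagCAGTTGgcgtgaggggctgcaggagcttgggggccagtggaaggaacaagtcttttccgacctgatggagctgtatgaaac
Actc1: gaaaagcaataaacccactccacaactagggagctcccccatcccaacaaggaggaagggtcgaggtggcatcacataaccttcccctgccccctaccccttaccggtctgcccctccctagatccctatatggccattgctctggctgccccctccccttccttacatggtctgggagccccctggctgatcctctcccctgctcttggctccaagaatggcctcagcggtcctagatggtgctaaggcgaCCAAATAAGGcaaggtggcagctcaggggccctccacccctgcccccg
Ptprn: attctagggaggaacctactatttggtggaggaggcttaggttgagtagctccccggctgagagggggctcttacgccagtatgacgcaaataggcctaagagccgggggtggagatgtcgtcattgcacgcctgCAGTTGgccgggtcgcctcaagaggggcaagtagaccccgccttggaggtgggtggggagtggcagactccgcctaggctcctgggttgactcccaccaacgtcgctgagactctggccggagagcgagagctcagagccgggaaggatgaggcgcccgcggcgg
Chrna1 held 3 E-boxes, which start 75, 56 and 27 bases before the gene start. The outer pair reads CAGCTG, a form that 15.1% of 33469 rat promoters of this length held at least once and 1.69% held at least 2 times. Myog held 2 E-boxes, 157 and 31 bases before the start, and Ptprn held 1, at 115 bases, while 72.1% of the promoters held at least 1. Actc1 held a CArG box from base 3 of the transcript as annotated, which 1.64% of the promoters held, and no E-box in this window. None of the 4 matched the MEF2 box pattern searched in this window, against 0.565% of the promoters. The A/T-rich stretch ctatatttat in the Myog promoter was no match to this pattern, and looser forms of the box were not searched. Of the other genes, Myh3 held 1 E-box at 192 bases and Myh8 none, in windows placed by their annotated starts. Rrad, Ankrd1 and Ncam1 had no entry. Gene starts are as annotated in RefSeq and were not checked, so a window can miss part of the promoter in use. A match, or the lack of one, is a description of these letters only.

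Vehicle libraries 2 and 5 stood apart from the other 21 quadriceps libraries. They lay at -43.8 and -40.5 on the second principal component, which held 16.8% of the variance. Vehicle library 8 lay at 39.4 on the first, which held 18.0%. Totals ran from 11462369 to 16525274 counts per quadriceps library, and mitochondrial genes took 10.96% to 22.8% of them. Muscle genes marked every quadriceps library: Ckm ran from 14715 to 29618 CPM (counts scaled by the TMM-adjusted library size), against at most 13.4 CPM in liver. Fold changes of the 9 genes and of the named list genes are given with and without vehicle libraries 2 and 5.

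Among the strain genes, Ankrd1 encodes an ankyrin-repeat protein that binds titin in the I band and moves to the nucleus on stretch. It had a lowest, median and highest level of 28.5, 43.4 and 184 CPM in CagriSema libraries and of 23.3, 51.4 and 221 CPM in weight-matched libraries. In vehicle libraries these were 22.8, 109.5 and 2566 CPM. The vehicle maximum was library 2, with 35732 counts, and library 5 followed at 259 CPM, just above vehicle library 1 at 245 CPM. The 3 groups overlapped over most of the range below library 5. Library 2 stood 37.1-fold and library 5 stood 3.75-fold above the median of the other 5 vehicle libraries.

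Actc1 encodes cardiac alpha-actin, the actin of the heart and of developing skeletal fibres. Its lowest, median and highest levels were 10.8, 18.3 and 56.0 CPM in CagriSema libraries, 6.87, 10.1 and 20.7 CPM in weight-matched libraries and 14.5, 19.3 and 122 CPM in vehicle libraries. Here library 5 was the higher of the pair, at 122 CPM against 74.3 CPM in library 2. The highest library without them was CagriSema library 39, at 56.0 CPM. Part of the Actc1 coding sequence is nearly identical to that of Acta1, the skeletal actin, which was counted at 23664 to 42955 CPM, so the counting could have split reads between them. Acta1 stood at 32863 CPM in library 2 and 31216 CPM in library 5, inside the range of the other 21.

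Rrad encodes a small G protein of the RGK family that lowers calcium entry through voltage-gated channels and is raised in injured and denervated muscle. Its lowest, median and highest levels were 7.94, 14.95 and 43.4 CPM in CagriSema libraries, 7.27, 8.70 and 18.3 CPM in weight-matched libraries and 6.86, 18.7 and 214 CPM in vehicle libraries. Vehicle library 2 held 214 CPM and library 5 held 57.0 CPM, while vehicle library 4 was the lowest of all 23 at 6.86 CPM. The weight-matched libraries were close together apart from library 27 at 18.3 CPM.

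Ptprn encodes IA-2, a transmembrane protein of the receptor tyrosine phosphatase family in dense-core secretory granules of endocrine and nerve cells, where it is an autoantigen of type 1 diabetes. In quadriceps it was counted low, between 6 and 285 times per library. Its lowest, median and highest levels were 0.614, 1.001 and 2.73 CPM in CagriSema libraries, 0.388, 0.878 and 2.47 CPM in weight-matched libraries and 0.919, 2.13 and 20.5 CPM in vehicle libraries. Library 2 held 20.5 CPM and library 5 held 6.99 CPM, against at most 2.73 CPM in the other 21. Of 12 other granule genes listed, 2 passed the filter, Cpe and Ica1, and both lay inside the range of the other 21 libraries in libraries 2 and 5.

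Myog, the myogenic transcription factor raised by denervation and in fusing myoblasts, separated both libraries widely. It had a lowest, median and highest level of 10.5, 13.5 and 20.2 CPM in CagriSema libraries, of 5.99, 9.59 and 18.2 CPM in weight-matched libraries and of 9.45, 15.3 and 88.8 CPM in vehicle libraries. Library 2 stood at 88.8 CPM and library 5 at 51.1 CPM, against 20.2 CPM in the highest of the other 21. The 5 other vehicle libraries lay between 9.45 and 15.55 CPM, inside the range of the other groups.

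Chrna1 encodes the ligand-binding alpha subunit of the muscle acetylcholine receptor. Its lowest, median and highest levels were 4.51, 6.37 and 13.6 CPM in CagriSema libraries, 2.51, 3.99 and 8.53 CPM in weight-matched libraries and 3.49, 6.25 and 17.2 CPM in vehicle libraries. Library 5 was the highest of all at 17.2 CPM, whereas library 2, at 9.26 CPM, lay below CagriSema libraries 40 and 39 at 13.6 and 12.4 CPM. Ncam1, a cell adhesion molecule of nerve, satellite cells and denervated fibres, spanned 21.7 to 36.8 CPM in CagriSema libraries, 18.6 to 45.3 CPM in weight-matched libraries and 19.1 to 69.4 CPM in vehicle libraries. Library 5 held 69.4 CPM and library 2 held 56.8 CPM of Ncam1, both above the other 21.

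The developmental myosins did not follow one pattern. Myh3, the embryonic myosin heavy chain, had a lowest, median and highest level of 135, 255 and 308 CPM in CagriSema libraries, of 74.4, 163 and 237 CPM in weight-matched libraries and of 81.6, 236 and 517 CPM in vehicle libraries. Library 5 was the highest at 517 CPM, but library 2 lay inside the range at 174 CPM, and the next highest was vehicle library 8 at 425 CPM. Myh8, the perinatal myosin heavy chain, varied least, with a coefficient of variation of 12.2% in CagriSema, 14.8% in weight-matched and 18.9% in vehicle libraries. It spanned 30.5 to 41.6 CPM in CagriSema libraries, 31.5 to 45.8 CPM in weight-matched libraries and 27.3 to 45.7 CPM in vehicle libraries. Library 5 was the lowest of all 23 for Myh8, at 27.3 CPM, and library 2 held 44.95 CPM. The skeletal myosin heavy chains share long stretches of near-identical sequence, and the adult Myh4 was counted at 49888 to 109392 CPM, so reads of Myh3 and Myh8 could have been split with it.

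Vehicle library 2 stood above all other 21 libraries in 6 of the 9 genes and library 5 in 8 of the 9. The same held for 18.3% of the 12471 genes tested in library 2 and for 12.2% in library 5. Both libraries stood above the other 21 in 6 of the 9 genes, namely Ankrd1, Actc1, Rrad, Ptprn, Myog and Ncam1, and in 5.77% of all genes tested. The genes were chosen on these libraries, so these counts describe them and test nothing.

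**Figure D1:**
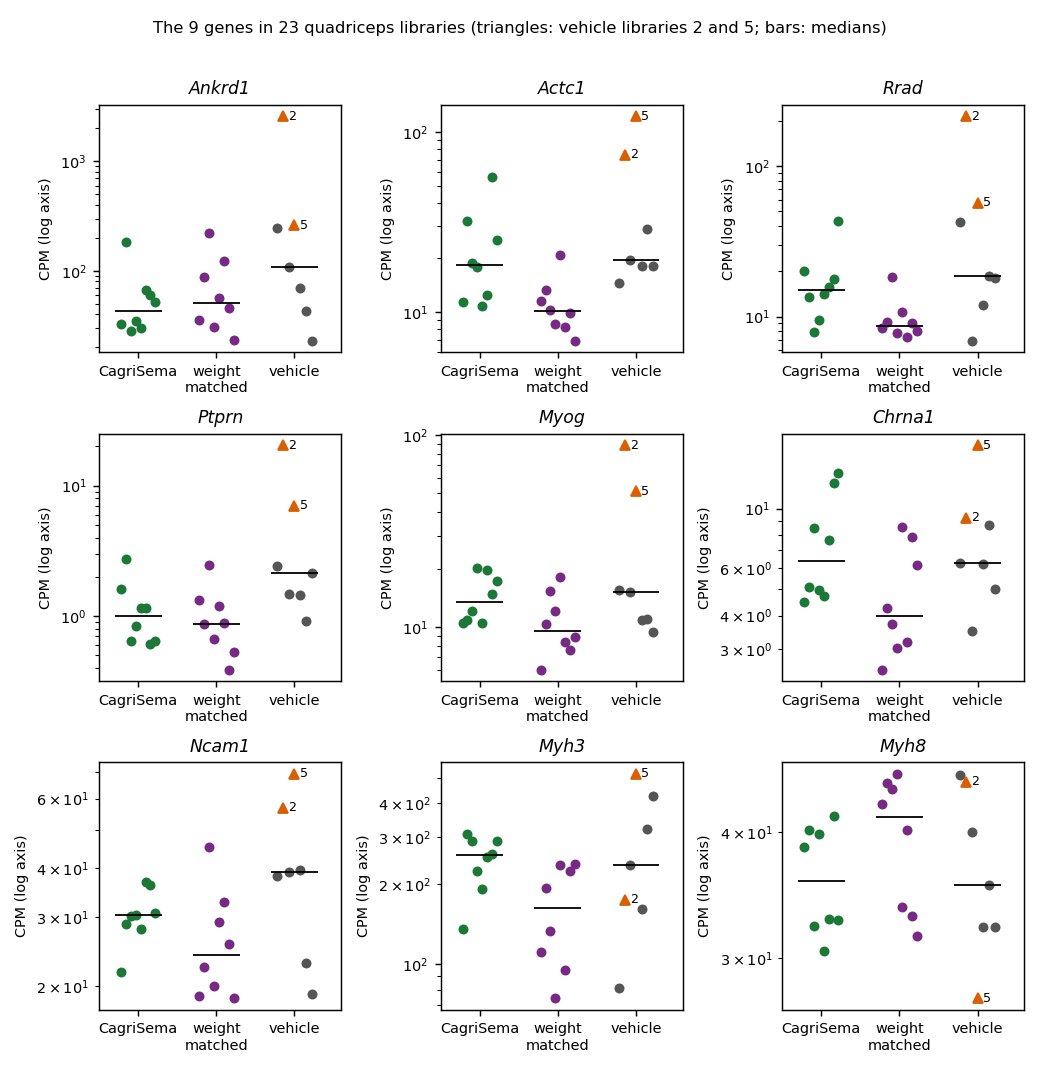
Levels of the 9 genes in CPM (log axis) in each of 23 quadriceps libraries, by treatment, with bars at the group medians and vehicle libraries 2 and 5 as numbered triangles. The triangles lie above every other point for 6 genes, library 5 alone does so for Chrna1 and Myh3, and library 5 lies below every other point for Myh8.

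In weight-matched against vehicle quadriceps, the fit over all genes put Rrad, Ptprn and Actc1 past its threshold, lower in weight-matched rats, and the other 6 genes not, by edgeR's quasi-likelihood test (Benjamini-Hochberg over all genes tested, threshold 0.05). As the genes were chosen on these libraries, this describes them and is no test of them. Of all genes tested, 2.29% were called, 139 higher and 146 lower. Rrad had a log2 fold change of -2.43 ± 0.58 (SE), Ptprn of -2.31 ± 0.59 and Actc1 of -1.91 ± 0.48. Without vehicle libraries 2 and 5 these values were -0.99 ± 0.40, -0.71 ± 0.38 and -0.82 ± 0.36, and none of the 9 genes was called, beside 19 of 12597 genes (0.151%). At an unadjusted p under 0.05 stood 1548 genes. Leaving out vehicle library 2 or vehicle library 5 alone also ended all 3 calls. Without library 2 the log2 fold changes were -1.40 for Rrad, -1.32 for Ptprn and -1.73 for Actc1. Without library 5 they were -2.39, -2.21 and -1.36. Among the weight-matched libraries, leaving out 25, 26, 28 or 30 likewise ended all 3 calls, with log2 fold changes that hardly moved. Over the 23 fits that each left out 1 library, Rrad was called in 16, Actc1 in 14 and Ptprn in 11.

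Ankrd1 had the largest fitted difference of the 9 genes from vehicle in weight-matched rats, at -2.60 ± 0.84, yet was not called, and without vehicle libraries 2 and 5 it stood at -0.33 ± 0.62. Myog stood at -1.41 ± 0.43 and, without them, at -0.20 ± 0.24. Chrna1, Ncam1 and Myh3 stood at -0.70 ± 0.34, -0.62 ± 0.23 and -0.75 ± 0.32, and without them at -0.26, -0.26 and -0.59. Myh8 stood at 0.10 ± 0.11, and at 0.09 without them. With the 2 libraries taken out, the median log2 fold change of the 9 genes was -0.33, against -1.41 with them, and that of all genes was near 0 in both fits.

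In CagriSema against vehicle quadriceps, none of the 9 genes was called by edgeR, where 4 of 12471 genes were (0.0321%) and 1287 genes had an unadjusted p under 0.05. DESeq2 called 38 genes and 1 of the 9, Ankrd1. Ankrd1 had a log2 fold change of -2.95 ± 0.85, Ptprn of -2.11 ± 0.58 and Rrad of -1.57 ± 0.56. Without vehicle libraries 2 and 5 they stood at -0.68, -0.51 and -0.14, and 0 of 12597 genes were called (0%), with 603 at an unadjusted p under 0.05. Actc1 and Myog changed sign with these libraries: Actc1 stood at -0.88 ± 0.46 with them and 0.22 ± 0.36 without, and Myog at -0.99 ± 0.43 and 0.22 ± 0.24. Chrna1 stood at -0.07 ± 0.33 with them and 0.38 ± 0.33 without. Ncam1, Myh3 and Myh8 stood at -0.43, -0.17 and -0.03 with them and at -0.07, -0.01 and -0.04 without. Both comparisons with vehicle share the vehicle libraries, so their values are not independent of each other.

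In CagriSema against weight-matched quadriceps, which uses no vehicle library for its fold changes, none of the 9 genes was called, beside 16 of all genes tested (0.128%). At an unadjusted p under 0.05 stood 954 genes, and DESeq2 called 34 genes and none of the 9. Actc1 had a log2 fold change of 1.04 ± 0.46, Rrad of 0.86 ± 0.57, Chrna1 of 0.64 ± 0.33, Myh3 of 0.58 ± 0.31 and Myog of 0.42 ± 0.42. Ncam1 and Ptprn stood at 0.19 ± 0.22 and 0.20 ± 0.63. Ankrd1 stood at -0.35 ± 0.79 and Myh8 at -0.13 ± 0.11. Without vehicle libraries 2 and 5, which then enter only the shared estimate of the spread, 15 genes (0.119%) and none of the 9 were called, and the fold changes of the 9 hardly moved. With edgeR, 1213 genes then had an unadjusted p under 0.05.

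**Figure D2:**
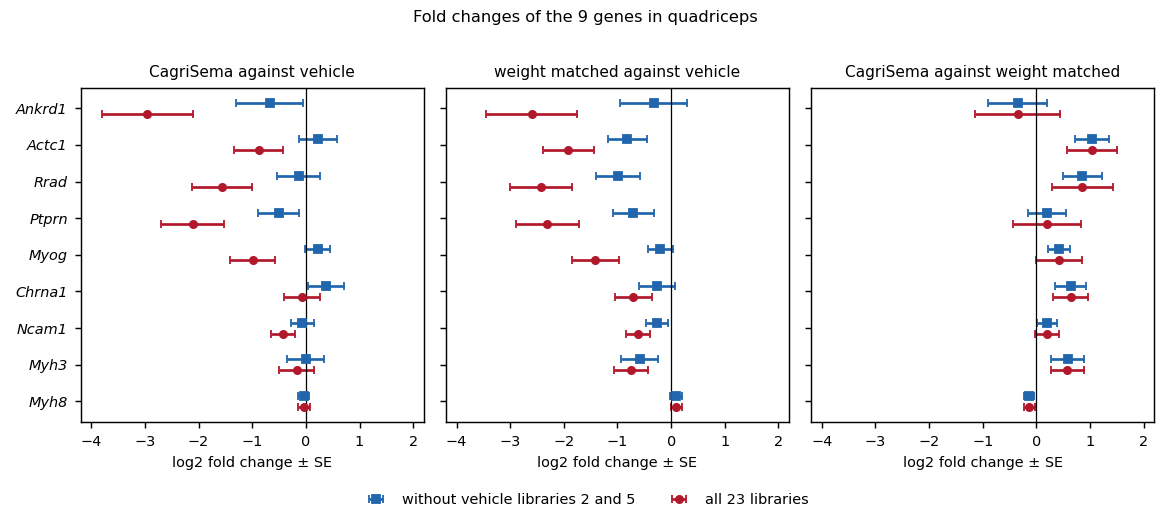
Log2 fold changes ± SE of the 9 genes in quadriceps, with all 23 libraries (circles) and without vehicle libraries 2 and 5 (squares). Ankrd1 moves to -0.33 without them, against -2.60 with them, in weight matched against vehicle, and the values of CagriSema against weight matched hardly move.

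Other genes of the same programmes were read in the same fit. Their lists were written for known roles, but with earlier results of these data known. The adjusted p-values of list genes therefore describe these libraries and are no independent test. In the denervation list 15 of 18 genes were tested, with 1 called higher and 1 lower in weight-matched against vehicle rats and none in the other comparisons. Nr4a1, an activity-induced nuclear receptor, was higher at 314 ± 68.9 CPM (SD, n = 8) in weight-matched rats, against 189 ± 62.1 CPM (n = 7) in vehicle rats, with a log2 fold change of 0.73 ± 0.17 and an adjusted p of 0.031 in edgeR's test. Ampd3, an AMP deaminase raised by denervation, was lower, with a log2 fold change of -0.97 ± 0.26 and an adjusted p of 0.048 in edgeR's test. Neither was called without vehicle libraries 2 and 5, where Nr4a1 stood at 0.59 (adjusted p = 0.184) and Ampd3 at -0.46 (adjusted p = 0.317) in edgeR's test.

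Myod1, a myogenic factor of satellite cells and fast fibres, had 23.6 to 42.6 CPM in CagriSema libraries, against 48.8 to 133 CPM in weight-matched libraries. Vehicle libraries had 21.6 to 117 CPM, with library 2 the highest of them. In CagriSema against weight-matched rats the log2 fold change of Myod1 was -1.27 ± 0.28. The adjusted p was 0.085 in edgeR's test with all libraries and 0.019 without vehicle libraries 2 and 5. The fold change was -1.27 in that fit too. In weight-matched against vehicle rats Myod1 stood at 0.78 ± 0.28 (adjusted p = 0.135 in edgeR's test). Without vehicle libraries 2 and 5 it stood at 1.19 (adjusted p = 0.056 in edgeR's test).

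In the neuromuscular junction list 14 of 15 genes were tested, and 1 was called, in weight-matched against vehicle rats. Dok7, the adaptor that activates the kinase MuSK, was higher with a log2 fold change of 0.31 ± 0.08 and an adjusted p of 0.032 in edgeR's test. The fold change was 0.32 and the adjusted p 0.096 in edgeR's test without vehicle libraries 2 and 5. The other receptor subunits were not called. Chrnd, the delta subunit of fetal and adult receptors, averaged 10.5 ± 5.31 CPM in weight-matched rats, against 23.5 ± 14.1 CPM in vehicle rats, a log2 fold change of -1.15 ± 0.37 (adjusted p = 0.090 in edgeR's test), or -0.90 without vehicle libraries 2 and 5. Chrnb1, the beta subunit, stood at -0.24 ± 0.07 (adjusted p = 0.0565 in edgeR's test), or -0.17 without them. Chrne, the subunit of the adult receptor, stood at 0.08 ± 0.23, and Musk, the receptor kinase of the junction, at -0.37 ± 0.25, or 0.07 and -0.07 without them.

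In the list of embryonic and regenerating fibre genes 14 of 18 were tested. Mest, an imprinted gene of growing tissue, was called lower in weight-matched rats, at 1.87 ± 0.23 CPM, against 3.16 ± 0.72 CPM in vehicle rats. Its log2 fold change was -0.76 ± 0.15, with an adjusted p of 0.013 in edgeR's test. It was -0.64 without vehicle libraries 2 and 5, with an adjusted p of 0.074 in edgeR's test. No other gene of this list was called in a comparison.

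In the mechanical strain list 21 of 23 genes were tested, with 2 called lower in weight-matched against vehicle rats and 1 in CagriSema against weight-matched rats. Hspb7, a small heat shock protein of the sarcomere, had a log2 fold change of -1.58 ± 0.39 (adjusted p = 0.039) and Lmcd1, a LIM protein of muscle, of -1.79 ± 0.48 (adjusted p = 0.0498), both in edgeR's test. They stood at -0.70 and -0.72 without vehicle libraries 2 and 5, with adjusted p-values of 0.286 and 0.328 in edgeR's test. Csrp3, the muscle LIM protein of the Z disc, and Ankrd2, a titin-binding relative of Ankrd1, were not called, at -2.28 ± 0.66 and -1.97 ± 0.56, or -0.87 and -1.08 without these libraries. Amotl2, a scaffold protein of the Hippo pathway, averaged 18.8 ± 3.08 CPM in CagriSema rats, against 29.5 ± 6.19 CPM in weight-matched rats. Its log2 fold change was -0.65 ± 0.13, with an adjusted p of 0.037 in edgeR's test. Without vehicle libraries 2 and 5, which enter this comparison only through the shared spread, the fold change was again -0.65 and the adjusted p 0.054 in edgeR's test.

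The median log2 fold changes of the 4 lists in weight-matched against vehicle rats were -0.24, -0.19, -0.38 and -0.49, in the order given, against -0.01 over all genes. They were -0.05, -0.12, -0.19 and -0.17 without vehicle libraries 2 and 5. Of 8 tested genes of calcium channels and RGK proteins, 4 of adult fibres and 2 of secretory granules, none was called in any of the 3 comparisons. The adult fast myosin Myh4 stood at 0.33 ± 0.13, the slow myosin Myh7 at -0.97 ± 0.61 and Acta1 at 0.25 ± 0.09 in weight-matched against vehicle rats. They stood at 0.30, -1.05 and 0.30 without vehicle libraries 2 and 5.

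Libraries 2 and 5 differed from each other in which programme was high. In library 2, 15 of 21 strain genes stood above the other 21 libraries, against 6 of 21 in library 5. Over all genes tested the shares were 18.3% and 12.2%. Flnc, filamin C, had 16034 CPM in library 2 and 2073 CPM in library 5, against at most 2980 CPM in the other 21. Xirp1, an actin-binding protein of damaged fibres and their ends, had 3272 and 250 CPM, against at most 400 CPM. Hspb1, a small heat shock protein, had 1950 and 204 CPM, and Csrp3 had 2268 and 383 CPM, against at most 335 and 499 CPM. Ankrd1, Rrad and Ptprn lay on this side, higher in library 2.

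Most listed genes of new fibres and satellite cells were high in library 5 instead. Of 14 in the embryonic and regenerating list, 11 stood above the other 21 libraries in library 5, against 2 in library 2, where that share (14.3%) lies below the 18.3% of all genes. Tnnt2, cardiac troponin T of immature fibres, had 1.65 CPM in library 2 and 27.05 CPM in library 5, against at most 10.2 CPM in the other 21. Igf2, a fetal growth factor, had 30.2 and 61.7 CPM, against at most 48.3 CPM. Pax7 and Myf5, transcription factors of satellite cells, had 3.25 and 4.38 CPM in library 5. Of 14 junction genes, 6 stood above the others in library 5 (42.9%, beside 12.2% of all genes) and 1 in library 2 (7.14%, beside 18.3%). Chrnd had 16.6 and 48.9 CPM, against at most 31.8 CPM, and Musk had 1.94 and 6.43 CPM, against at most 4.11 CPM. Actc1, Chrna1, Myh3 and Ncam1 lay on this side, higher in library 5. Myog and Myh8 were higher in library 2, at 88.8 and 44.95 CPM, against 51.1 and 27.3 CPM in library 5. Of the embryonic list, Nes and Myf6 were also higher in library 2, at 117 and 157.7 CPM, against 51.8 and 57.5 CPM.

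The denervation list stood high in part in both, with 6 of 15 genes above the other 21 libraries in library 2 and 8 of 15 in library 5. These shares were 40% and 53.3%, beside 18.3% and 12.2% of all genes. Runx1, a transcription factor raised in denervated fibres, had 77.8 CPM in library 2 and 23.4 CPM in library 5, against at most 9.38 CPM. Gadd45a, a denervation-induced stress gene, had 142 and 51.2 CPM, against at most 35.8 CPM. Fbxo32, the ubiquitin ligase atrogin-1 of wasting muscle, stood low in library 2, at 76.9 CPM, below the other 21. Nr4a1 stood below the other 21 in both libraries, at 135 CPM in library 2 and 139 CPM in library 5. These counts describe 1 library each and carry no test.

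**Figure D3:**
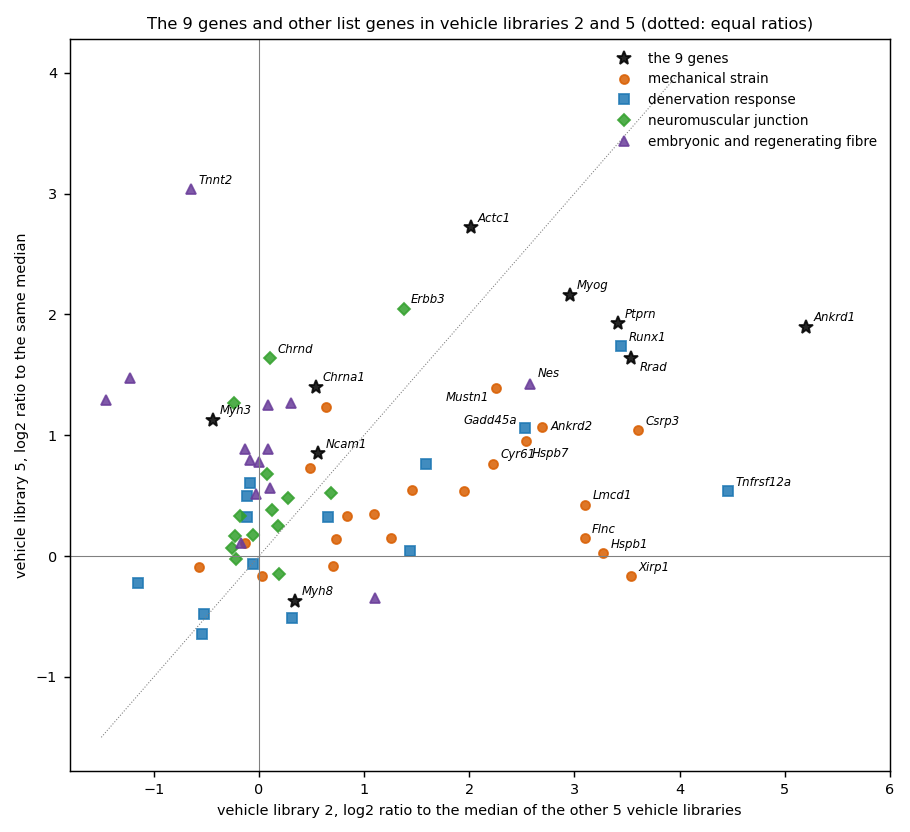
Each point is a gene, placed by its log2 ratio to the median of the other 5 vehicle libraries in vehicle library 2 (horizontal) and vehicle library 5 (vertical). Strain genes such as Flnc and Xirp1 extend along the library 2 axis, embryonic and junction genes such as Tnnt2 and Chrnd along the library 5 axis, and Actc1, Myog, Ptprn, Rrad and Ankrd1 are high on both.

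Markers of fibroblasts and leukocytes were high in these libraries. The sum of all 6 fibroblast markers was 1383 CPM in library 2 and 1708 CPM in library 5, the second and first of 23. It ran from 421 to 759 CPM in CagriSema libraries, from 408 to 804 CPM in weight-matched libraries and from 762.2 to 1708 CPM in vehicle libraries. The sum of 11 macrophage and leukocyte markers was 155 and 218 CPM in libraries 2 and 5, again the second and first, against 27.6 to 144 CPM in CagriSema, 52.7 to 150 CPM in weight-matched and 38.6 to 137 CPM in the other vehicle libraries. S100a8, a neutrophil marker of that list, was at or under 3 counts in every quadriceps library. The part of these cells in the levels of the 9 genes was not tested.

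Sums of nerve and tendon markers in these libraries lay within the range of the others, in part near its top. Of 23 libraries, nerve sums ranked 7 in library 2 and 2 in library 5, and tendon sums 2 and 3. The sum of 10 Schwann cell and nerve markers was 33.1 CPM in library 2 and 44.3 CPM in library 5, against 20.1 to 47.6 CPM in CagriSema, 13.0 to 42.2 CPM in weight-matched and 18.9 to 37.02 CPM in the other vehicle libraries. The sum of 7 tendon markers was 428 and 389 CPM, against 70.0 to 298 CPM, 103 to 313 CPM and 56.6 to 547 CPM. Among 6 satellite cell markers, 1 stood above the other 21 libraries in library 2 and 4 in library 5. These shares were 16.7% and 66.7%, beside 18.3% and 12.2% of all genes. The sum of 6 matched muscle fibre markers ranked 15 of 23 in library 2 and 22 of 23 in library 5. Endothelial sums ranked 14 and 3 in libraries 2 and 5, smooth muscle sums 12 and 4, and adipocyte sums 21 and 20. In such bulk samples, more cells of a type and more RNA per cell cannot be told apart. Their part in the result was likewise not tested.

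Markers of blood and liver were also highest in library 2. The sum of 3 matched red blood cell markers was 769 CPM there, against at most 315 CPM elsewhere. The sum of 4 hepatocyte markers was 38.1 CPM there and up to 15.2 CPM in a CagriSema library, against at most 1.56 CPM in the other vehicle libraries. Albumin (Alb), the main liver secretory transcript, stood at 30.9 CPM in library 2, or 0.0564% of its lowest liver level. That share of the highest liver level of Ptprn, 42.9 CPM, is 0.0242 CPM, and 20.5 CPM were measured in library 2. The part of liver RNA in the level of Ptprn was not tested.

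Within the groups, the 9 genes varied together only in part. Over 36 pairs of genes, the median Spearman's rho between deviations of log2 CPM from the group mean was 0.40 over 23 libraries and 0.20 over the 21 without vehicle libraries 2 and 5. The points share libraries, and so their depth and makeup. Ankrd1 and Ncam1 kept a rho of 0.73 and 0.75, and Myog and Ncam1 of 0.64 and 0.57. Ankrd1 and Rrad had 0.64 over 23 libraries and 0.20 over 21. Ptprn and Chrna1 had -0.09 and -0.50.

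**Figure D4:**
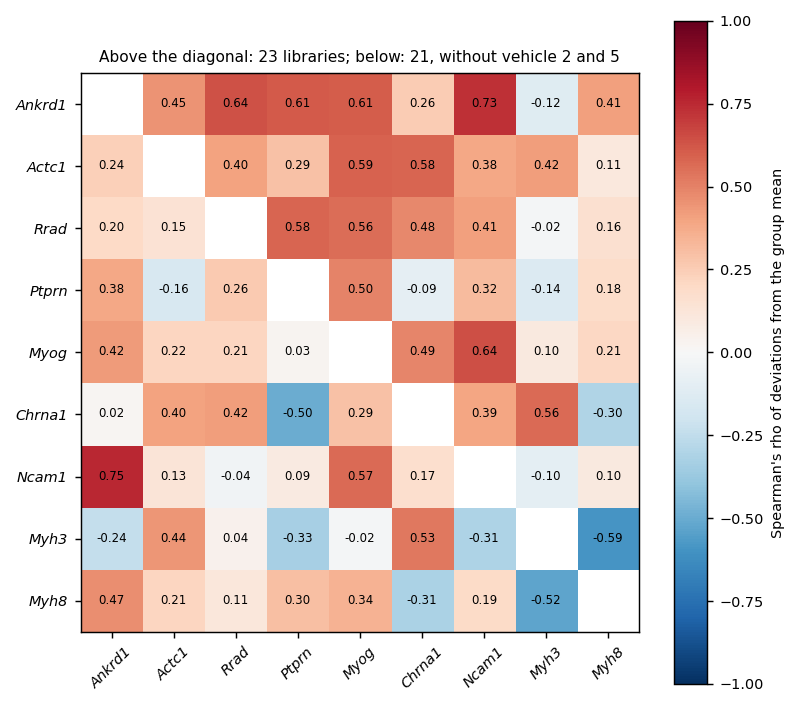
Spearman's rho between the within-group deviations of each pair of the 9 genes, over 23 quadriceps libraries above the diagonal and over 21 below it. Ankrd1 with Ncam1 keeps 0.73 and 0.75, whereas Ankrd1 with Rrad has 0.64 above and 0.20 below.

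Both developmental myosins tracked adult fibre genes. The genes most like Myh3 over 23 libraries were Myl2, the slow regulatory light chain, with a rho of 0.94, and Pdlim1, with 0.92. Myh3 had a rho of 0.87 with the slow myosin Myh7 and of -0.87 with the fast myosin Myh4. Without vehicle libraries 2 and 5 these were 0.84 and -0.85. In library 5, Myh7 stood at 3897 CPM, inside the range of the other 21 libraries. Its median in the other 5 vehicle libraries was 1192 CPM. Myod1 ran against Myh3, at -0.71 and -0.80. Myh8 had the opposite signs, with 0.72 for Myh4 and -0.67 for Myh7, and -0.59 for Myh3 itself, and the genes most like it were Rap1a and Tet2, at 0.88 and 0.85.

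For the other genes, the 2 most like each of them over 23 libraries were Tubb6 and Mustn1 for Ankrd1 (0.87 and 0.86), Abhd2 and Anxa2 for Rrad (0.82 and 0.80) and Rps16 and Lmna for Ptprn (0.83 and 0.82). They were Macf1 and Rpl3 for Myog (0.87 and 0.84), Ppp1r14c and Cdkn1a for Ncam1 (0.87 and 0.82) and Cr1l and Foxp4 for Actc1 (0.75 and 0.73). Spag8 and a gene listed under the symbol 2-Sep were most like Chrna1 (0.84 and 0.80). The fellow subunit Chrnd was less like Chrna1, at 0.64, or 0.65 without vehicle libraries 2 and 5. Without those libraries Lmna had 0.61 with Ptprn and Macf1 had 0.68 with Myog.

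In liver, a tissue that the choice of the genes did not use, 2 of the 9 passed the low-count filter. Ptprn was counted in every liver library, 98 to 623 times. It averaged 25.99 ± 3.93 CPM in CagriSema livers (SD, n = 7), 25.6 ± 8.38 CPM in weight-matched livers and 28.2 ± 9.87 CPM in vehicle livers (n = 8 each). Its log2 fold change was -0.12 ± 0.22 for CagriSema against vehicle, -0.14 ± 0.21 for weight matched against vehicle and 0.02 ± 0.22 for CagriSema against weight matched. The adjusted p-values were 0.786, 0.700 and 0.997 in edgeR's test, where 0.354%, 7.02% and 0.535% of 12702 liver genes were called. The vehicle values ran from 11.9 to 36.5 CPM, and the groups overlapped. Without liver vehicle libraries 4 and 6, which hold the highest shares of ribosomal protein counts (1.84%) and mitochondrial counts (9.29%), the comparisons with vehicle gave -0.28 ± 0.20 and -0.30 ± 0.20 (adjusted p = 0.597 and 0.389 in edgeR's test).

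Ankrd1 was counted 4 to 18 times per liver library, with log2 fold changes of -0.07 ± 0.33, 0.24 ± 0.32 and -0.31 ± 0.33 in the same order and adjusted p-values of 0.925, 0.664 and 0.882 in edgeR's test. The other 7 genes had 0 to 5 counts in a liver library, and Actc1 had 0 in all 23. A count of 0 allows up to 0.188 to 0.303 CPM in a liver library, taking 3 counts as the limit, for counting error only.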

How the data were processed

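The authors deposited 1 table of whole-number counts per gene for the whole series, not normalized, whose 32552 genes carry an Ensembl identifier and a symbol. RNA came from an RNeasy Minikit extraction and the library kit was the Twist UMI system, per the labels' protocols. Such a kit tags each RNA molecule, so that copies made by PCR can be merged. The submitters' processing notes name fastp 0.23.1 and STAR 2.5.2b. Not given in the sources used here are the genome build, the annotation, the counting program and whether tags were merged. Without that, reads of near-identical genes (actins, myosins) may be split, and intervals cover counting error only. In all, 46 count columns were matched to libraries by title, and 1 column that matched none was not used. Totals were 9888858 to 16525274 counts per library. No 2 quadriceps libraries were near-identical, with a chi-square per degree of freedom of at least 5.47 over 253 pairs.

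The 10 genes and all lists were chosen with earlier results of these data known. Each gene is the row with its symbol. In R 4.3.3, edgeR 4.0.16 fitted the 3 groups of a tissue together (filterByExpr, TMM scaling, robust quasi-likelihood F test, Benjamini-Hochberg over 12471 quadriceps or 12702 liver genes, threshold 0.05). The procedure was tested on simulated data with no outlying library, so that run does not cover the part of vehicle libraries 2 and 5. CPM use TMM-scaled library sizes. Alternatives were DESeq2 1.42.0, other scaling (RLE), no filter, the compared groups alone, and fits without vehicle libraries 2 and 5, without libraries 2, 5 and 8 (added after the data were seen) and without each library. Likeness is Spearman's rho of log2(CPM + 0.5) less the group mean. Named are all 9 genes, a fixed set of receptor, strain and fibre genes, up to 2 called genes with the lowest p per list and comparison, and the 2 genes most like each. Other names were chosen after their values were seen. Of 162 list genes, 9 matched no row and were not analysed here, and 2 matched by an older symbol. The values of 1 further list gene are not reported here. Promoters and motif shares come from RefSeq (GRCr8).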

Additional observations from a re-analysis of the deposited data

Results flagged for a closer look

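A single library stood far from the others of its group in 12 of 30 groups examined, by the gap to its nearest neighbour relative to the group's range. Chance alone marks about 1 group in 20, but the genes were chosen on the quadriceps values, so the count is not set against that rate. Vehicle library 2 did so for Rrad (214 CPM), Ptprn (20.5 CPM) and Ankrd1 (2566 CPM), and vehicle library 5 for Chrna1 (17.2 CPM). Weight-matched library 27 did so for Rrad (18.3 CPM) and Ptprn (2.47 CPM), and weight-matched library 29 for Actc1 (20.7 CPM). CagriSema library 34 did so for Ptprn (2.73 CPM) and Ankrd1 (184 CPM), library 39 for Actc1 (56.0 CPM) and library 40 for Rrad (43.4 CPM). In liver, weight-matched library 28 held 42.9 CPM of Ptprn.

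In the CagriSema and weight-matched groups, the values of Rrad, Ptprn, Actc1 and Ankrd1 in these quadriceps libraries were below those of vehicle libraries 2 and 5.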

How the results depend on the processing

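No fold change of the 9 genes that was called turned its direction under any alternative run. RLE scaling left each of the 27 gene-by-comparison results on its side of the threshold. For weight matched against vehicle, the count of genes called was 285 as reported, 131 without a low-count filter, 693 with DESeq2, 7 with the 2 groups alone, 19 without vehicle libraries 2 and 5, and 5 without libraries 2, 5 and 8. Of the 9 genes, 0, 5, 0, 0 and 0 were called there. Leaving out each library gave 46 genes (without vehicle library 5) to 645 (without vehicle library 1), and 0 to 4 of the 9. For CagriSema against vehicle the counts were 38 with DESeq2, which called 1 of the 9, 2 with the 2 groups alone, 0 without vehicle libraries 2 and 5 and 0 without 2, 5 and 8, and 0 to 7 with each library left out, never with a call among the 9. For CagriSema against weight matched they were 7 without a filter, 34 with DESeq2 and 2 to 17 with each library left out. The cause was not tested. Without vehicle libraries 2 and 5, the calls in weight matched against vehicle were 0 for the denervation, junction, embryonic and strain lists. In CagriSema against weight matched they were 1 for denervation and 0 for strain. No paired analysis was possible because the 3 quadriceps groups share no library numbers. Ptprn rests on few counts. The levels of the developmental actin and myosins could depend on how reads of near-identical genes were counted, which was not tested.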
